A study of Mus musculus with 10 samples.

Results

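The contractile genes of smooth muscle are described here in the prostates of 10 male TRAMP mice, as a module of 31 genes. The genes were chosen by symbol: a gene was measured by the array probe set that carries its symbol alone and, where several do, by the one with the highest mean over the 10 arrays. All 31 genes were measured, of 19938 genes with such a probe set. A filter on low means kept 14953 genes for testing, and 30 of the 31 passed it. Pln (phospholamban, an inhibitor of the calcium pump) had a mean of 6.46 log2 units, below the limit of 6.55, and was not tested.

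The TRAMP transgene places the T antigen of a virus behind the probasin promoter (Pbsn), which is active in prostate epithelium and not in muscle. In the nicotine group, 5 TRAMP mice drank tap water with nicotine tartrate salt giving 250 µg/ml of nicotine, from an age of 8 to 9 weeks. In the water group, 5 TRAMP mice drank tap water, so all 10 carried the transgene. Each mouse gave 1 whole-transcript Affymetrix array, the deposited values were read as log2 intensities, and the number of arrays limits the precision.

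The stroma of the prostate holds sheets of smooth muscle around each duct, and their contraction expels secretion. Calcium entering the cell activates myosin light chain kinase, the phosphorylated myosin pulls on actin filaments, and a phosphatase ends the cycle. Intermediate filaments and adhesion plaques carry the force to the cell border. Many of the genes share a regulator: serum response factor (SRF) binds a DNA sequence called the CArG box, and its partner myocardin, the product of Myocd, turns the muscle genes on. In prostate cancer the stroma can lose smooth muscle genes, and TRAMP mice can develop poorly differentiated tumours with neuroendocrine markers.

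The promoters that hold an exact CArG box are shown first, because the box is the feature that this set of genes is best known to share. RefSeq promoters of build GRCm38.p6, from 250 bases before to 50 bases after a start, were at hand for 26 of the 31 genes. Actg2, Myh11, Tagln, Myocd and Nexn were not in that table. An exact box, searched on both strands, was present for 3 of the 26 genes (11.5%), against 1.81% of the 27025 genes in the table. The start of each box lay 102 bases before the start of Fhl1 (chrX:56779433-56779732, plus strand), 161 before that of Myl9 (chr2:156775214-156775513, plus strand) and 227 before that of Vcl (chr14:20929148-20929447, plus strand). With 1 of the 6 central bases changed to G or C, a near match was present for 5 of the 26 genes (19.2%), namely Acta2, Myl9, Synm, Jph2 and Hspb6, against 9.69% of all genes. Acta2 (chr19:34255324-34255623, minus strand) is added to show a pair of such near matches, which begin 84 and 34 bases before its start. A match is a description of these letters and says nothing of binding in these mice. The sequences run 5′ to 3′ on the strand of the gene, with the exact boxes of Fhl1, Myl9 and Vcl and the near matches of Acta2 in capitals.
Fhl1: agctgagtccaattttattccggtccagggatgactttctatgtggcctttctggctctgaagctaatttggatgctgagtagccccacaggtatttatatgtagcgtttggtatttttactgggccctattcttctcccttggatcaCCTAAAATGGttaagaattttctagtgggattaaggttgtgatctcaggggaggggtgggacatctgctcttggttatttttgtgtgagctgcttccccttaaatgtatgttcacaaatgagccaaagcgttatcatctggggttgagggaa
Myl9: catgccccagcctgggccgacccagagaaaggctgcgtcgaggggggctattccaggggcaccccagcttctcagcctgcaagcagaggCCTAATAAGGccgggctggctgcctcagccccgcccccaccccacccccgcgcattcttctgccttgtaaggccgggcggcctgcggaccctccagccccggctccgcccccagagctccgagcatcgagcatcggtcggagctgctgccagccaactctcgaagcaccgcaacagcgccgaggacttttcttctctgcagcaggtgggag
Vcl: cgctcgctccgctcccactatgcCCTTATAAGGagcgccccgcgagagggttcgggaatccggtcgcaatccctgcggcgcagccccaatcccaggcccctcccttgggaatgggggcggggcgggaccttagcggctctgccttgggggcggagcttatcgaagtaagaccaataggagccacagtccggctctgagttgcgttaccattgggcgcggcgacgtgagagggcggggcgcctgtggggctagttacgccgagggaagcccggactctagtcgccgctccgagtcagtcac
Acta2: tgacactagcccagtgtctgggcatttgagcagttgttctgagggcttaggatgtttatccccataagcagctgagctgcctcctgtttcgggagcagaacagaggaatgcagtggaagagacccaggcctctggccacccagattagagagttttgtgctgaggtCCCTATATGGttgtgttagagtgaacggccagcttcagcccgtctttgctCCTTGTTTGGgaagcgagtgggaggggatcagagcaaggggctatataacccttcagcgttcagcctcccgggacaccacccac

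Mice 1 and 3 of the nicotine group were set apart by Chga, a granule gene of neuroendocrine cells, and each comparison below was run with and without them. Chga was at 11.74 log2 units in nicotine 1 and at 11.3 in nicotine 3, against at most 7.73 in the other 8 mice. The mean of 13 neuroendocrine markers, Chga itself among them, was 9.52 in nicotine 1 and 9.79 in nicotine 3, against 7.01 to 7.55 in the other 8. All 13 lay above the water mean in nicotine 1 and 12 in nicotine 3, where Pcsk1 lay 0.19 below it and Foxa2 only 0.04 above. The mean of 11 luminal prostate markers was 11.08 in nicotine 1 and 7.31 in nicotine 3, against 11.6 to 11.78 in the other 8. In nicotine 3 the markers of the labelled tissue were thus low, with Pbsn at 5.08 against 9.17 in nicotine 1 and 10.86 to 12.20 in the other 8. The mean of 13 proliferation markers was 10.38 in nicotine 1 and 11.25 in nicotine 3, against 9.66 to 9.73 in nicotine mice 2, 4 and 5 and 9.25 to 9.48 in water mice. The mean of 10 seminal vesicle genes varied within both groups, at 12.52 in nicotine 5 and 5.92 to 8.54 in the other nicotine mice, against 12.06 to 13.15 in water mice 3 to 5 and 7.21 to 7.31 in water mice 1 and 2.

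Across the module, the low values were mainly those of nicotine 3. The median log2 distance from the water mean over the 30 tested genes was -1.73 in nicotine 3 and -0.42 in nicotine 1, where over all tested genes it was -0.02 and -0.01. Nicotine 3 was the lowest of the 10 mice for 24 of the 30 genes, as it was for 35.3% of all tested genes. It lay more than 1 log2 unit below the water mean for 19 of the 30, against 14.3% of all tested genes, and more than 2 log2 units below for 13, against 5.8%. Nicotine mice 1 and 3 were the lowest pair for 17 of the 30, against 25.8% of all tested genes. In this bulk tissue, fewer muscle cells and less RNA per muscle cell cannot be told apart.

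**Figure D1:**
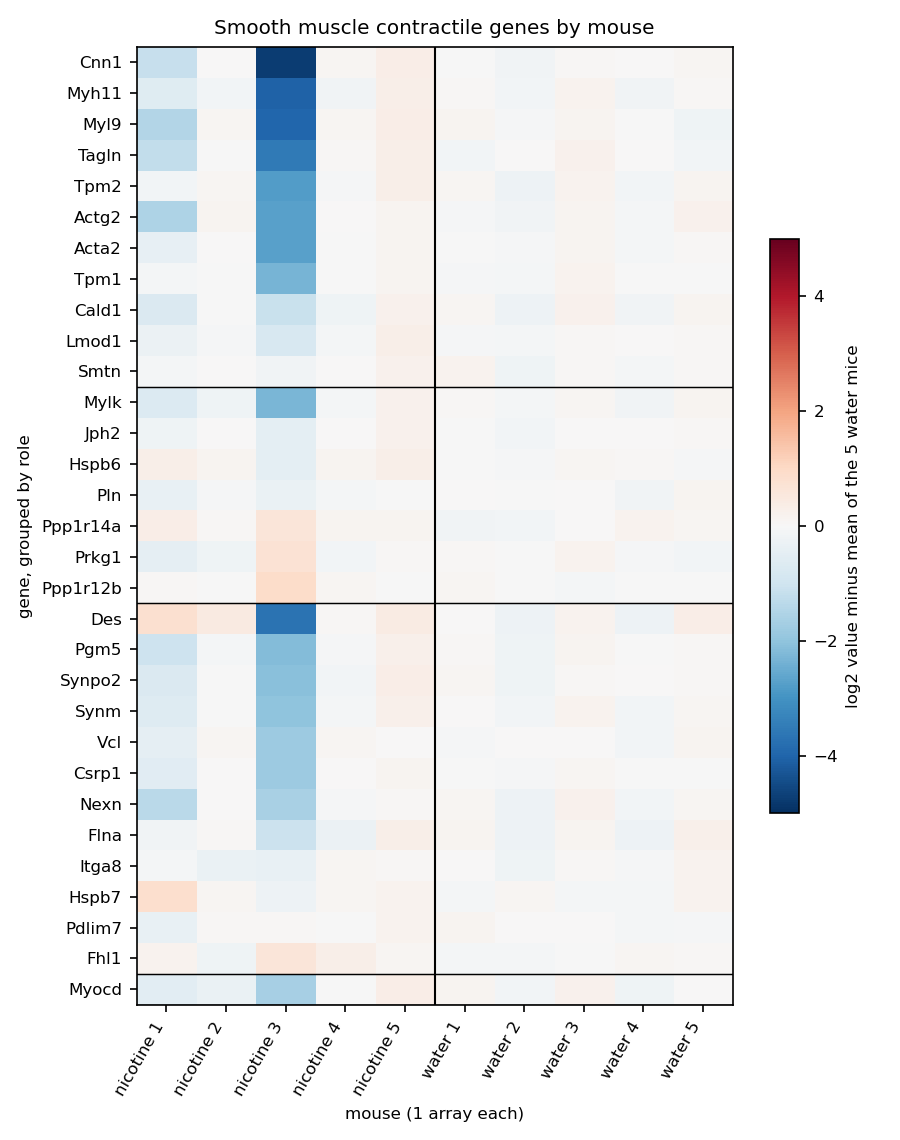
Log2 value minus the mean of the 5 water mice, for each of the 31 genes (rows, grouped by role) in each of the 10 mice (columns, nicotine mice left of water mice), on a colour scale from -5 to 5 log2 units. The column of nicotine 3 is low for nearly all filament genes, down to -4.76 for Cnn1, while the columns of nicotine mice 2, 4 and 5 stay near 0.

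Nicotine 3 was the lowest mouse for each of the actin and myosin genes of the filaments. Acta2, the smooth muscle alpha-actin that fills the contractile filaments, read 12.34, 12.75, 10.02, 12.72 and 12.86 log2 units in nicotine mice 1 to 5, against 12.70, 12.67, 12.87, 12.64 and 12.80 in water mice 1 to 5. Nicotine 3 was far below and nicotine 1 a little below all water mice, and the other 3 nicotine mice lay among them. Myh11, the smooth muscle myosin heavy chain, read 11.19, 11.65, 7.75, 11.59 and 12.06 in nicotine mice 1 to 5, against 11.83, 11.64, 11.97, 11.61 and 11.83 in water mice 1 to 5. Nicotine 3 was 16.3-fold below the water mean for Myh11 and 6.58-fold below it for Acta2, while nicotine 5 was the highest mouse for Myh11. Myl9, the myosin regulatory light chain that the kinase phosphorylates, read 10.39, 11.93, 7.89, 11.94 and 12.16 in nicotine mice 1 to 5, against 11.99, 11.79, 11.99, 11.81 and 11.65 in water mice 1 to 5. Nicotine 3 was 15.6-fold and nicotine 1 2.74-fold below the water mean, and nicotine 5 was above every water mouse. Actg2, the gamma-actin of visceral smooth muscle, read 9.72, 11.38, 8.54, 11.30 and 11.41 in nicotine mice 1 to 5, against 11.21, 11.09, 11.39, 11.16 and 11.47 in water mice 1 to 5. Here nicotine 1 stood furthest below the water mean of all genes in the module, 2.92-fold, and the other 3 nicotine mice lay within the range of the water mice.

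Genes for proteins that bind the actin filament lay below the water mean in nicotine 3 by amounts that ranged widely, from -0.17 log2 units for Smtn to -4.76 for Cnn1. Cnn1 (calponin, which binds actin and dampens myosin) read 10.65, 11.86, 7.06, 11.93 and 12.15 in nicotine mice 1 to 5, against 11.81, 11.66, 11.88, 11.84 and 11.92 in water mice 1 to 5. Its value in nicotine 3, 27.1-fold below the water mean, was the largest distance in the module. Tagln (transgelin, an actin cross-linker) read 10.22, 11.44, 7.93, 11.50 and 11.72 in nicotine mice 1 to 5, against 11.32, 11.48, 11.65, 11.47 and 11.29 in water mice 1 to 5. Cald1 (caldesmon, an actin-binding inhibitor of myosin) read 9.56, 10.26, 9.16, 10.06 and 10.51 in nicotine mice 1 to 5, against 10.38, 10.05, 10.51, 10.10 and 10.42 in water mice 1 to 5. For both genes nicotine mice 1 and 3 were below all water mice and the groups overlapped through the other 3. The tropomyosins Tpm1 and Tpm2, which lie along actin, were 5.00-fold and 6.88-fold below the water mean in nicotine 3. In nicotine 1 both were within the range of the water mice. Lmod1 (leiomodin, which starts actin filaments) was 1.75-fold below the water mean in nicotine 3. Smtn (smoothelin, an actin-binding protein of contractile muscle) read 9.10 to 9.50 in nicotine mice and 9.06 to 9.43 in water mice, with nicotine 3 within the range of the water mice. Actins and tropomyosins are close paralogs, and whether their probe sets share signal was not tested.

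**Figure D2:**
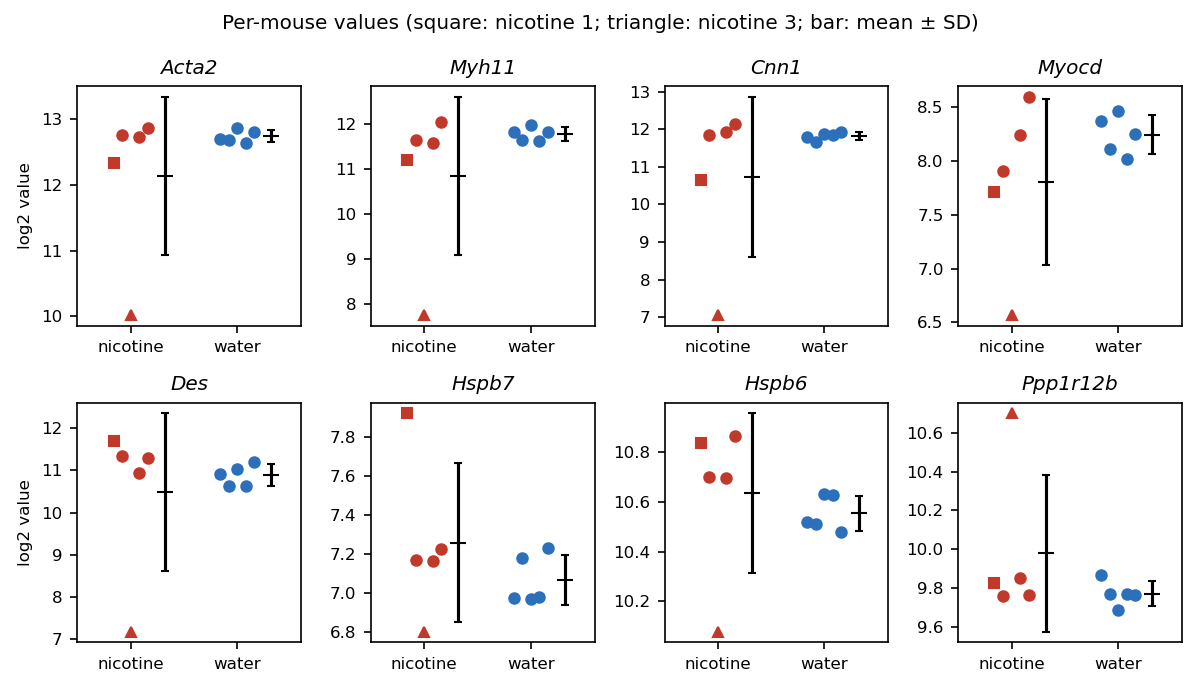
Log2 values by mouse for Acta2, Myh11, Cnn1, Myocd, Des, Hspb7, Hspb6 and Ppp1r12b, nicotine mice left of water mice, with nicotine 1 as a square, nicotine 3 as a triangle and the group mean ± SD as a bar. Nicotine 3 is lowest in every panel but that of Ppp1r12b, where it is highest at 10.70, and nicotine 1 is highest for Des at 11.69 and Hspb7 at 7.92.

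The genes that control contraction split in direction. Mylk, the myosin light chain kinase, read 9.50, 9.97, 7.89, 10.09 and 10.40 in nicotine mice 1 to 5, against 10.23, 10.08, 10.30, 9.999 and 10.30 in water mice 1 to 5. Nicotine mice 1, 2 and 3 were below all water mice, nicotine 3 by far, and nicotine 5 was above them. Its opponent is myosin phosphatase, which has targeting subunits encoded by Ppp1r12b and Ppp1r12a and an inhibitor encoded by Ppp1r14a (CPI-17). Ppp1r12a, which smooth muscle also uses, is not in the module and is listed below with the nonmuscle relatives. It went the other way from Ppp1r12b in nicotine 3, with distances from the water mean of -0.45 there and -0.50 in nicotine 1. Ppp1r12b read 9.83, 9.76, 10.70, 9.85 and 9.76 in nicotine mice 1 to 5, against 9.86, 9.77, 9.69, 9.77 and 9.76 in water mice 1 to 5. Nicotine 3 alone was high, 1.91-fold above the water mean. Of the 7 probe sets that carry this symbol, nicotine 3 was the highest of the 10 mice in 6. Its distance from the water mean was 0.93 in the probe set used and 0.39 to 0.74 in the rest of these 6. In the remaining probe set nicotine 3 went the other way, at 8.81 against 8.90 to 9.24 in water mice. Ppp1r14a read 8.45, 8.17, 8.72, 8.27 and 8.26 in nicotine mice 1 to 5, against 7.97, 7.99, 8.15, 8.29 and 8.23 in water mice 1 to 5. Nicotine mice 1 and 3 were above all water mice, and the other 3 overlapped with them. Prkg1, the cGMP-dependent kinase through which nitric oxide relaxes muscle, was 1.66-fold above the water mean in nicotine 3 and was lowest in nicotine 1.

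Hspb6 (HSP20, a small heat shock protein linked to relaxation) read 10.84, 10.70, 10.08, 10.70 and 10.86 in nicotine mice 1 to 5, against 10.52, 10.51, 10.63, 10.63 and 10.48 in water mice 1 to 5. Nicotine mice 1, 2, 4 and 5 were above every water mouse and nicotine 3 was below every water mouse. Jph2 (junctophilin, which ties the calcium store to the cell membrane) read 8.11, 8.37, 7.84, 8.36 and 8.56 in nicotine mice 1 to 5, against 8.33, 8.22, 8.37, 8.37 and 8.40 in water mice 1 to 5. Nicotine mice 1 and 3 were below and nicotine 5 above all water mice. Pln, which was not tested, read 6.18 to 6.53 in nicotine mice and 6.37 to 6.68 in water mice, with nicotine mice 1 and 3 lowest.

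For some cytoskeletal and adhesion genes, nicotine 1 and nicotine 3 lay on opposite sides of the water mice. Des (desmin, the muscle intermediate filament) read 11.69, 11.34, 7.18, 10.93 and 11.29 in nicotine mice 1 to 5, against 10.92, 10.63, 11.05, 10.63 and 11.21 in water mice 1 to 5. Nicotine 1 was the highest of the 10 mice, 1.74-fold above the water mean, and nicotine 3 the lowest, 13.1-fold below it. Hspb7 (a small heat shock protein of heart and skeletal muscle) read 7.92, 7.17, 6.80, 7.16 and 7.23 in nicotine mice 1 to 5, against 6.97, 7.18, 6.97, 6.98 and 7.23 in water mice 1 to 5. It too was highest in nicotine 1, 1.81-fold above the water mean, and lowest in nicotine 3. Nexn (nexilin, an actin-binding protein of the Z-disc) read 6.82, 8.19, 6.56, 8.12 and 8.26 in nicotine mice 1 to 5, against 8.27, 7.93, 8.38, 8.04 and 8.27 in water mice 1 to 5. Pgm5 (aciculin, a protein of adhesion plaques) read 9.93, 10.88, 8.81, 10.91 and 11.22 in nicotine mice 1 to 5, against 11.04, 10.78, 11.11, 10.96 and 11.04 in water mice 1 to 5. For both, nicotine mice 1 and 3 were well below all water mice.

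Fhl1 (a LIM-domain protein of muscle) went the other way, at 10.31, 9.91, 10.72, 10.42 and 10.20 in nicotine mice 1 to 5, against 10.04, 10.04, 10.11, 10.23 and 10.18 in water mice 1 to 5. Nicotine mice 1, 3 and 4 were above and nicotine 2 below all water mice. In nicotine 3, Synpo2 (myopodin) was 4.23-fold, the intermediate filament gene Synm 4.03-fold, the plaque protein gene Vcl (vinculin) 3.52-fold, the LIM-domain gene Csrp1 3.48-fold and the actin cross-linker gene Flna (filamin A) 2.13-fold below the water mean. Itga8, an integrin subunit, read 6.96 in nicotine 3 and 7.01 to 7.45 in the other nicotine mice, against 7.12 to 7.53 in water mice. Pdlim7, a PDZ and LIM protein of actin fibres, read 9.44 in nicotine 3, which was within the range of the water mice of 9.28 to 9.53.

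Myocd, the coactivator of SRF and the regulator of the set, read 7.71, 7.90, 6.57, 8.23 and 8.59 in nicotine mice 1 to 5, against 8.37, 8.11, 8.46, 8.02 and 8.24 in water mice 1 to 5. Nicotine mice 1, 2 and 3 were below all water mice and nicotine 5 was above them. Nicotine 3 was 3.19-fold below the water mean.

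The comparison of nicotine with water over all 10 mice asked whether these genes differ with treatment. None of the 30 passed a limma adjusted p of 0.05, and 0% of all 14953 tested genes did, with a smallest adjusted p of 0.458. At an unadjusted p under 0.05 there were 0 of the 30, against 10.1% of all tested genes. The groups did not overlap for 0 of the 30, against 4.9% of all tested genes. The log2 difference, nicotine minus water, was negative for 25 of the 30 and positive for 5, where 49.2% of all tested genes were negative. Its median was -0.43 over the 30 and 0.00 over all tested genes, and it ranged from -1.09 ± 0.87 (SE) for Cnn1 to 0.25 ± 0.12 for Ppp1r14a. Acta2 averaged 12.14 ± 1.20 in nicotine mice and 12.74 ± 0.09 in water mice (SD, n = 5 each), a difference of -0.60 ± 0.49 (SE; limma adjusted p = 0.506). Myh11 averaged 10.85 ± 1.76 in nicotine mice and 11.78 ± 0.15 in water mice (SD, n = 5 each), a difference of -0.93 ± 0.72 (SE; limma adjusted p = 0.492). Des averaged 10.49 ± 1.87 in nicotine mice and 10.89 ± 0.25 in water mice (SD, n = 5 each), a difference of -0.40 ± 0.76 (SE; limma adjusted p = 0.763). The differences were thus within the spread of the nicotine mice, whose median SD over the 30 genes was 0.811, against 0.135 in water mice.

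By role, all 11 filament genes had a negative difference (median -0.60), as did 10 of 12 cytoskeletal and adhesion genes (median -0.41) and 3 of 6 tested control genes. Without nicotine 3, the median over the 30 genes was -0.07, with 21 negative, and without nicotine 1 it was -0.41, with 22 negative. Weights per array estimated by limma gave nicotine 3 0.0321 and nicotine 1 0.113, against 0.952 to 4.67 for the other 8 arrays. With them the median was 0.07 and 3 of the 30 differences were negative. Hspb6 was then the 1 gene of the module that passed (0.21 ± 0.06 (SE), limma adjusted p = 0.0451). By these weights 7.33% of all tested genes passed, 2.84% with nicotine higher.

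Without the arrays with Chga above 9, nicotine mice 2, 4 and 5 were compared with the 5 water mice. Of the 30 genes, 0 passed a limma adjusted p of 0.05, as did 0% of all tested genes, and 1 had an unadjusted p under 0.05, against 14.7% of all tested genes. Positive differences were found for 25 of the 30, against 53.5% of all tested genes. They were small, with a median of 0.06 over the 30 and 0.01 over all tested genes, and a range from -0.10 ± 0.08 (SE) for Prkg1 to 0.30 ± 0.14 for Des. Acta2 averaged 12.78 ± 0.07 in nicotine mice 2, 4 and 5 (SD, n = 3) and 12.74 ± 0.09 in water mice (SD, n = 5), a difference of 0.04 ± 0.07 (SE; limma adjusted p = 0.819). The differences were -0.01 ± 0.12 for Myh11, 0.00 ± 0.15 for Myocd and 0.16 ± 0.08 for Cnn1.

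Hspb6 was the 1 gene of the 30 whose groups did not overlap in these 8 mice, where 10.6% of all tested genes had groups apart and 4.12% had them apart with nicotine higher. It averaged 10.75 ± 0.10 in nicotine mice 2, 4 and 5 (SD, n = 3) and 10.55 ± 0.07 in water mice (SD, n = 5), a difference of 0.20 ± 0.06 (SE; limma adjusted p = 0.183). With array weights it passed (0.22 ± 0.06 (SE), limma adjusted p = 0.0449), where 7.64% of all tested genes passed, 3.11% with nicotine higher. Without nicotine 5 the difference was 0.15 ± 0.07 (SE; limma adjusted p = 0.533) and the median over the 30 genes was 0.02, with 16 positive.

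**Figure D3:**
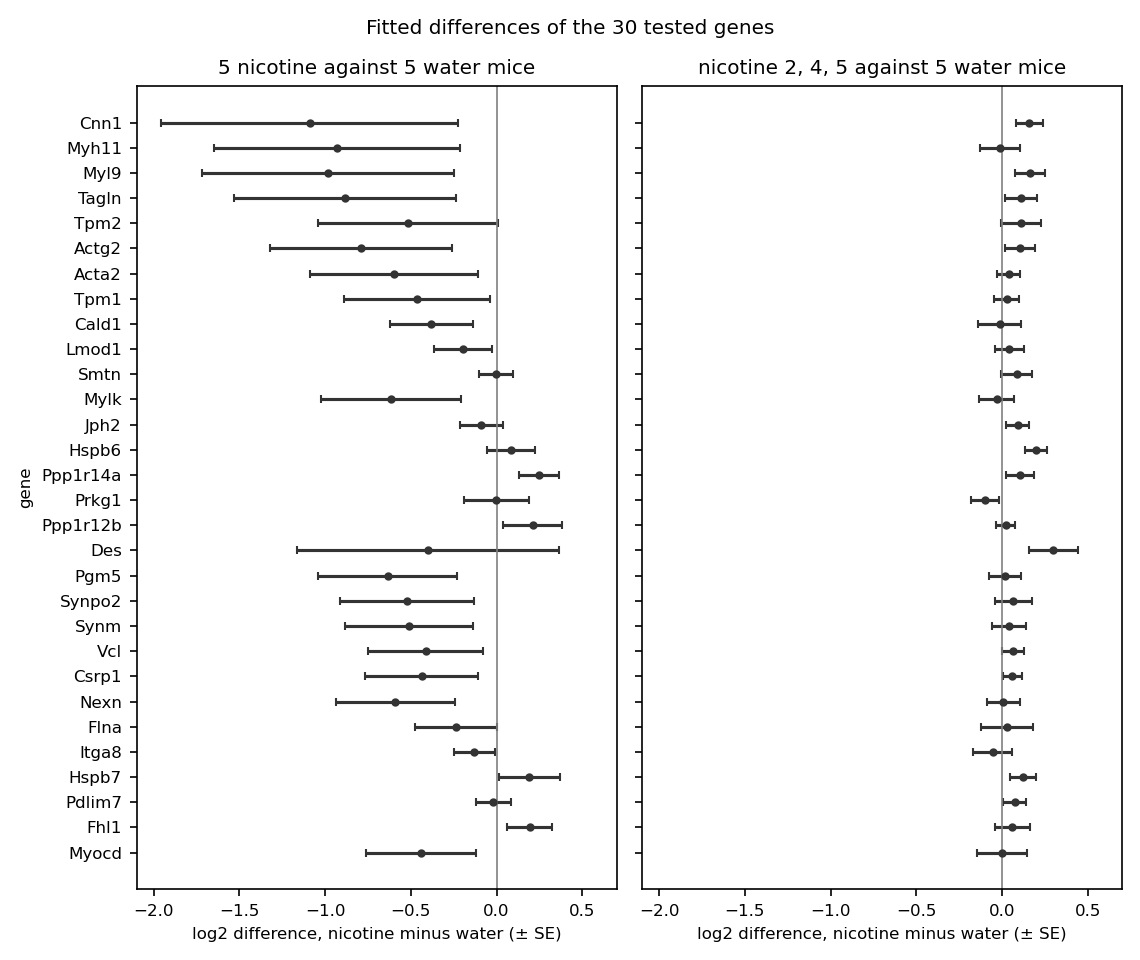
Log2 difference, nicotine minus water, with its SE for the 30 tested genes, with all 10 mice on the left and with nicotine mice 2, 4 and 5 against 5 water mice on the right. The left panel runs from -1.09 to 0.25 with wide errors, and the right panel from -0.10 to 0.30.

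Nicotine 5 was the highest of the 10 mice for 18 of the 30 genes, against 4.83% of all tested genes, among them Myh11, Cnn1, Myl9, Mylk and Myocd. This prostate was also the 1 nicotine sample with a high seminal vesicle mean. In water mice 1 to 5, the mean of the 30 genes was 9.995, 9.856, 10.07, 9.902 and 10.03. Their seminal vesicle means were 7.206, 7.306, 12.06, 13.15 and 12.95. Whether the means of the module and of the seminal vesicle genes go together was not tested. With the seminal vesicle mean as a covariate, the median difference over the 30 genes was -0.21 with 10 mice, against -0.43 without the covariate, and 0.07 with 8 mice.

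The distances in nicotine 1 are given apart for genes that striated muscle also uses and genes mainly of smooth muscle, with no test of the split. Of 12 tested genes shared with striated muscle, 4 lay above the water mean in nicotine 1 and the median distance was -0.18. Of 15 genes listed as mainly of smooth muscle, 2 lay above it and the median was -0.57. That list holds Ppp1r12b, which striated muscle uses too. In nicotine 3 the medians were -1.81 and -1.80, with 2 and 3 genes above the water mean. The mean of 21 skeletal muscle markers was 9.45 in nicotine 1 and 7.09 in nicotine 3, against 7.11 to 7.31 in the other 8, and all 21 were above the water mean in nicotine 1. Myh1, a fast myosin heavy chain, read 10.54 in nicotine 1 and 6.05 to 6.36 in the other 9 mice. The part of the skeletal, luminal, neuroendocrine and proliferation markers in the values of the module was not tested.

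**Figure D4:**
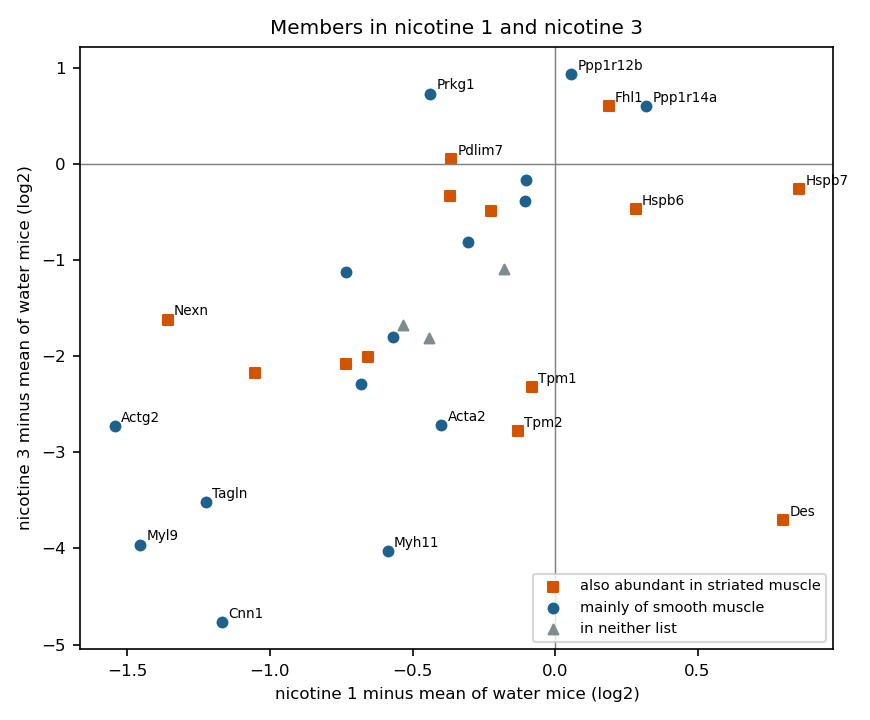
Log2 distance from the water mean in nicotine 1 (horizontal axis) and in nicotine 3 (vertical axis) for the 31 genes, Pln included. Colours mark genes that striated muscle also uses, genes listed as mainly of smooth muscle and genes in neither list. Des and Hspb7 stand at the right, at 0.80 and 0.86, while Cnn1 is lowest at -4.76 and Actg2 furthest left at -1.54.

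Markers of other cells of the tissue are given beside the module. The mean of 14 fibroblast markers was 9.29 in nicotine 1, 8.48 in nicotine 3 and 8.91 to 9.17 in nicotine mice 2, 4 and 5, against 9.37 to 9.75 in water mice. All 14 had a negative difference in both comparisons and 0 passed. Their groups did not overlap for 4 of the 14 with 10 mice, where 2.88% of all tested genes were apart with nicotine lower, and for 10 of the 14 with 8 mice, where 6.47% were. The mean of the 11 filament genes, in contrast, was 10.89 to 11.16 in nicotine mice 2, 4 and 5 and 10.79 to 11.06 in water mice. The mean of 9 pericyte markers was 8.43 in nicotine 1 and 8.28 in nicotine 3, against 7.84 to 8.01 in the other 8. Of the 9, 8 lay above the water mean in nicotine 1 (median distance 0.35) and 6 in nicotine 3 (median 0.11). The mean of 13 endothelial markers was 8.37 in nicotine 1 and 8.01 in nicotine 3, against 7.73 to 8.13 in the other 8. The median distance of these markers in nicotine 1 was 0.11, and 1 of them, Vwf (von Willebrand factor), lay 3.27 above the water mean. The mean of 11 immune markers was 7.49 in nicotine 1, 7.10 in nicotine 3 and 7.80 to 7.94 in nicotine mice 2, 4 and 5, against 7.89 to 8.44 in water mice. All 11 had a negative difference in both comparisons, 0 passed, and the groups did not overlap for 4 of the 11 in each, where 2.88% of all tested genes with 10 mice and 6.47% with 8 were apart with nicotine lower. The mean of 4 glial markers was 7.92 in nicotine 1 and 7.46 in nicotine 3, against 8.02 to 8.21 in the other 8. Of these 4, 3 lay above the water mean in nicotine 1 (median distance 0.07) and all 4 below it in nicotine 3 (median -0.26). Mal was the lowest of them, at -0.91 in nicotine 1 and -1.78 in nicotine 3. For 6 basal epithelial markers the mean was 7.44 in nicotine 1 and 7.01 in nicotine 3, against 7.41 to 7.91 in the other 8. The part of the fibroblast, pericyte, endothelial, immune, glial and basal markers in the values of the module was not tested. Acta2, Myh11 and other genes of the module are also used by the muscle coat of vessels.

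**Figure D5:**
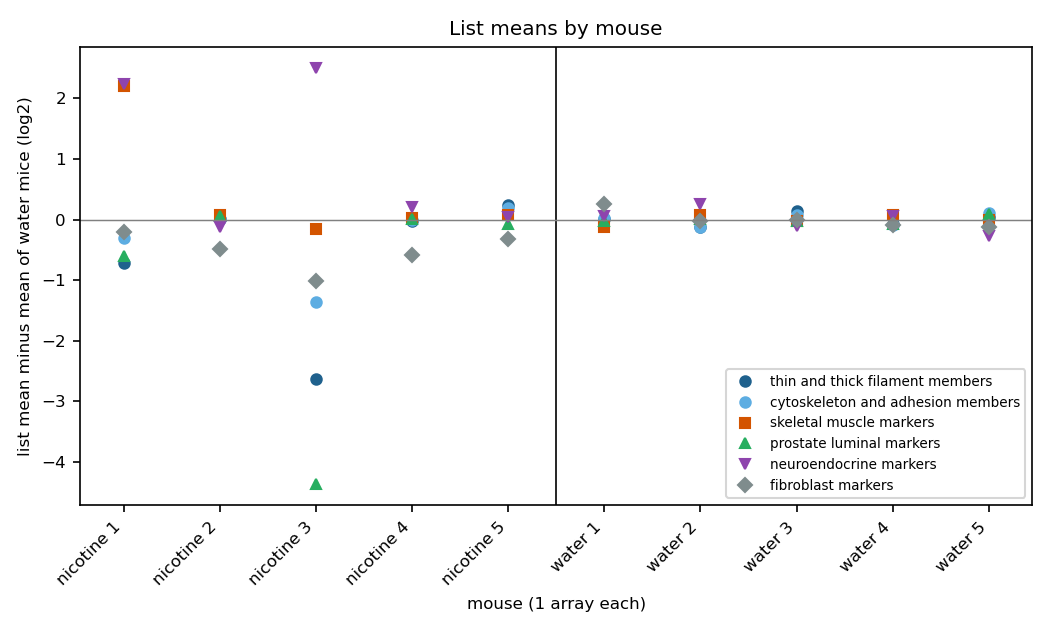
Mean log2 value of each list minus its mean in the 5 water mice, by mouse, for the filament genes, the cytoskeletal genes and the skeletal muscle, luminal, neuroendocrine and fibroblast markers, nicotine mice left of water mice. Nicotine 3 is low in the filament and luminal lists and high in the neuroendocrine list, and nicotine 1 is high in the skeletal muscle and neuroendocrine lists.

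The genes listed as nonmuscle relatives of the module are used by most cells. Some of them, such as Myl6 and Ppp1r12a, are used by smooth muscle as well. Of 14 tested relatives, 10 had a negative and 4 a positive difference with 10 mice (median -0.18), 0 passed, and 3 had an unadjusted p under 0.05, where 10.1% of all tested genes did. Their median distance in nicotine 3 was -0.38, with 11 of the 14 below the water mean and 3 above it. The lowest there were Cnn2, a calponin (-2.30), Myh9, a nonmuscle myosin heavy chain (-1.48), and the myosin light chain genes Myl12a (-1.35) and Myl6 (-1.07). Those above it were Myh10, Tpm4 and the cytoplasmic actin gene Actb, the last by 0.11. Myh10, another nonmuscle myosin heavy chain, read 10.08, 8.51, 11.02, 8.84 and 8.53 in nicotine mice 1 to 5, against 8.67, 8.77, 8.54, 8.61 and 8.76 in water mice 1 to 5. It was thus high in the same pair of mice in which Myh11 was low. For Tpm4, a nonmuscle tropomyosin, the groups did not overlap, as for 2.02% of all tested genes with nicotine higher, and the difference was 0.28 ± 0.08 (SE; limma adjusted p = 0.458). Vim (vimentin, the filament of mesenchymal cells) had a difference of -0.33 ± 0.12 with 10 mice and -0.39 ± 0.13 with 8. Tagln2, the nonmuscle transgelin, had 0.28 ± 0.06 with 8 mice (limma adjusted p = 0.095) and groups that did not overlap, as for 4.12% of all tested genes with nicotine higher.

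The regulators of the set gave mixed values. Of 9 genes listed as regulators around SRF and myocardin, 5 had a negative and 4 a positive difference with 10 mice and 0 passed. The 9 do not all act in the same direction on the muscle genes. Srf itself had a difference of 0.15 ± 0.06 (SE) and lay 0.14 above the water mean in nicotine 3, where the distance of Myocd was -1.67. In the same mouse, the distance was -2.01 for Mrtfb, a myocardin-related coactivator, and -2.12 for Klf5, a zinc finger factor of muscle and epithelium. For Elk1, another of the 9, it was 0.81. Of the 9, 6 lay below the water mean in nicotine 3 and 3 above it.

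Genes upstream of contraction were mixed. Of 13 tested receptors of smooth muscle, 7 had a negative and 6 a positive difference with 10 mice and 0 passed. Agtr1a, an angiotensin receptor, read 10.46, 11.48, 10.27, 11.53 and 11.65 in nicotine mice 1 to 5, against 11.56, 11.81, 11.74, 11.67 and 11.70 in water mice 1 to 5. Nicotine mice 1 and 3 were low, and the difference was -0.61 ± 0.27 (SE). Of 13 tested calcium and potassium channels, pumps and their subunits, 8 had a negative and 5 a positive difference and 0 passed. Kcnma1, the large-conductance potassium channel that relaxes muscle, read 9.69, 10.67, 8.63, 10.61 and 10.60 in nicotine mice 1 to 5, against 10.74, 10.75, 10.76, 10.64 and 10.81 in water mice 1 to 5. Cacna1c, the L-type calcium channel, went the other way, at 9.16, 7.55, 9.84, 7.65 and 7.95 in nicotine mice 1 to 5, against 7.97, 7.59, 7.92, 7.51 and 7.88 in water mice 1 to 5. Both channels stood apart in nicotine mice 1 and 3, in opposite directions.

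Downstream, 25 tested genes of the adhesion plaque and the dystrophin complex gave 19 negative and 6 positive differences with 10 mice, a median of -0.14 and 0 passing the test. Their median distance in nicotine 3 was -1.05. Dmd (dystrophin) read 7.53, 8.13, 6.60, 8.30 and 8.56 in nicotine mice 1 to 5, against 8.62, 8.28, 8.79, 8.32 and 8.44 in water mice 1 to 5. Lpp, a LIM protein of plaques in smooth muscle, had a distance of -2.32 from the water mean in nicotine 3. Sgcb, the beta-sarcoglycan, lay 2.31 above that mean. Nicotine 3 was thus not low for every gene of this muscle machinery.

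Correlations over the mice are given as descriptions, since all genes of an array share its RNA and its normalization. The median Pearson correlation of a gene with the mean of the other genes of the module was 0.956 over the 10 arrays, which nicotine 3 spans. Over the 8 arrays without nicotine 1 and 3 it was 0.789, against -0.0532 for the other tested genes. Synm (0.946), Pgm5 (0.926) and Tpm2 (0.919) followed the mean most closely in the 8 arrays. The lowest correlations were those of Ppp1r12b (-0.259), Fhl1 (0.101), Vcl (0.127), Hspb7 (0.132) and Ppp1r14a (0.291). Outside the module, 101 genes (0.677%) had a correlation above 0.8 with its mean over the 8 arrays. With predicted and clone names left out, the 10 closest were Rbfox3, Rab12, Myom1, Psmb8, Xaf1, Tmem140, Parp9, Phf11d, Dtx3l and Herc6, at 0.916 to 0.958.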

How the data were processed

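Total RNA of prostates was extracted with Trizol, amplified and hybridised to single-colour Affymetrix arrays, per the labels' protocols. The authors deposited 1 table of 35556 probe sets and 10 arrays, whose scale was read as log2 from its range of 3.59 to 14.1. Background correction, probe summary and normalization, not given in the sources used here, can shift all values of an array. Array medians ran from 7.50 to 7.57. Without scan dates, no check of batches was made.

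Names came from the platform annotation of the probe sets: 21789 had 1 symbol, 1621 several and 12146 none. They gave 19938 genes (999 with several probe sets), and 19856 matched RefSeq (GRCm38.p6) by Entrez identifier. The 25% of genes with the lowest means were left out. Nicotine and water were compared with limma 3.58.1 in R 4.3.3 (lmFit, eBayes, two-sided), with Benjamini-Hochberg adjustment over 14953 genes and a threshold of 0.05. The comparison was run on all 10 arrays and without those with Chga above 9 log2 units. The steps were tested on simulated data.

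The members and lists were chosen with earlier results of these data known. Values by mouse were printed for Acta2, Myh11, Des and Myocd and, in each role, for the 3 genes with the smallest unadjusted p with 10 mice and the 2 without nicotine 1 and 3. From each other list up to 4 and 2 genes were eligible by the same rule. Actb, Myh10, Cnn2, Myh9, Myl12a, Myl6, Myh1 and Vwf were chosen after their values were seen. Pbsn was also named outside this rule. The labels number separate mice. Alternatives were other filters, probe-set rules, normalizations, eBayes settings, array weights, covariates, a replicate block and leaving out each mouse. Genes of the lists not named are summarised by count. One list of signalling genes is not reported here.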

Additional observations from a re-analysis of the deposited data

Results flagged for a closer look

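In the 62 groups of 5 mice examined (the nicotine and water mice of 31 genes), 10 held a mouse whose gap to the nearest other mouse was more than 0.71 of the whole range. Chance gives this in about 1 of 20 groups, and the genes vary together, so the groups are not independent. The share over all tested genes was not computed, so the count cannot be read as particular to the module. Nicotine 3 was the lowest of the 10 mice for 35.3% and the highest for 30.2% of all tested genes. Nicotine 3 was the mouse in 8 of the 10. It was far below the other nicotine mice for Acta2 (10.02 log2 units), Myh11 (7.75), Des (7.18), Tpm1 (8.77), Tpm2 (7.58), Vcl (8.66) and Hspb6 (10.08). It was far above them for the phosphatase subunit gene Ppp1r12b (10.7). In the water group, mouse 2 was low for Synpo2 (8.91) and mouse 3 was high for Csrp1 (12.5).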

How the results depend on the processing

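With 10 mice, the count of genes past the threshold was 0 in every setting but array weights (1096 genes, 1 of them a member, Hspb6). The median difference of the members was 0.070 with array weights and 0.093 with the first principal component as a covariate, both opposite in sign to the main value of -0.43, and the cause was not tested. With the seminal vesicle mean as a covariate it was -0.21. With array weights and with the principal component, 22 of 30 members turned sign. Leaving out each mouse gave 0 genes and 0 members past the threshold and medians from -0.59 to -0.07, the last without nicotine 3, which also left 1 member with groups that did not overlap, against 0 in the other cases. In the comparison without nicotine 1 and 3, genes past the threshold numbered 18 with a 50% filter, 17 after quantile normalization, 27 with a trended and robust eBayes, 1143 with array weights, 2 with the seminal vesicle covariate and 4 with the principal component. The members past the threshold numbered 1 with array weights (Hspb6) and 0 in the other settings. Leaving out each mouse gave 0 to 90 genes (90 without water 5, 20 without nicotine 4), 0 members, medians from 0.02 to 0.10 and 1 to 2 members with groups that did not overlap. The lowest median was that without nicotine 5. Both groups number their mice 1 to 5, and deviations of same-numbered mice from their group means correlated at r = 0.02, -0.13, -0.08, 0.01 and 0.16. Nicotine 1 and 3 shift the nicotine mean, so these values cannot exclude a batch shared by same-numbered mice. With the mouse number as a replicate block, 0 genes and 0 members passed in either comparison. The members' median was -0.43 with 10 mice and 0.10 with 8. The small number of arrays and the wide spread of the nicotine mice limit what could be called.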
